A study of Bos taurus with 8 samples.

Results

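Mitochondrially encoded RNA fragments are the reads of a small RNA library that map to genes of the mitochondrial genome. They were followed here in the liver of postpartum dairy cows. The members were chosen by gene type: every gene annotated as mitochondrial rRNA (2 genes) or mitochondrial tRNA (22 genes), and the 13 protein-coding genes of the mitochondrial genome, 37 of the 24616 genes in the table. Of the 13, 3 carry the names MT-CYB, MT-CO2 and MT-CO3 in the table and were taken as CYTB, COX2 and COX3. Small RNA was sequenced as 1 library per cow from Holstein Friesian cows slaughtered about 14 days after calving. The 4 cows in severe negative energy balance (SNEB, libraries 7S, 8S, 9S and 10S) were fed 25 kg of silage and 4 kg of concentrate daily, and were milked 3 times a day. The 4 cows in mild negative energy balance (MNEB, libraries 2M, 3M, 4M and 5M) had free access to grass silage and a daily 8 kg of concentrate, and were milked 1 time a day. Feed and milking frequency differed together between the groups, so their parts cannot be told apart. Library 2M was titled MNEB but carried a treatment label of SNEB. It was kept in MNEB, and the fits were repeated with it in SNEB. Values below follow the library order just given.

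The mammalian mitochondrial genome is a small circle that is transcribed from both strands into long RNAs, in which tRNAs sit between most of the rRNA and mRNA stretches. Cutting out the tRNAs at both ends frees the rRNAs of the mitochondrial ribosome and the mRNAs, which code for core subunits of the respiratory chain complexes I, III and IV and of ATP synthase (complex V). Hepatocytes are rich in mitochondria and use them to oxidise the fatty acids that reach the liver when energy intake falls short of demand.

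The libraries held 21617227 to 28526343 gene counts in SNEB and 22809423 to 33963761 in MNEB, of which 98.9% to 99.1% in SNEB and 98.7% to 99.5% in MNEB came from miRNA genes. The tissue label was checked against markers of hepatocytes. miR-122 averaged 729200 RPM (reads per 1000000 gene counts) in SNEB and 745000 RPM in MNEB, and ALB, APOA1, FGB and SERPINA1 together ranged over 254.9 to 547.8 RPM in SNEB and 95.75 to 747.8 RPM in MNEB. All 4 Kupffer cell markers had reads, and their sum was 1.11 to 3.04 RPM in SNEB and 2.19 to 96.1 RPM in MNEB, with the highest value in 4M. The red-cell miRNA miR-451 stood at 1.65 RPM in 5M and at 31.5 to 81.7 RPM in the other libraries, while the 3 hemoglobin genes listed (HBA and HBB) had no read. Muscle markers summed to at most 1.95 RPM in SNEB and 0.878 RPM in MNEB. In bulk tissue, fewer cells of a type and less RNA per cell cannot be told apart.

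Of the 37 mitochondrial genes, 36 had reads in every library. The tRNA gene ENSBTAG00000043575 had 0 reads in all 8 libraries. With a floor of 3 reads, this allows a counted level of up to 0.0144 RPM over the libraries together and 0.0883 to 0.139 RPM in single libraries. The RNA itself could be higher if its reads did not align uniquely or fell in an overlapping gene, which was not tested. The members' mean levels over 8 libraries spanned 0.381 RPM for the tRNA gene ENSBTAG00000043544 to 830 RPM for the rRNA gene ENSBTAG00000043570. All 36 passed the filter on low counts, a mean of 10 reads per library, of which ENSBTAG00000043583 and ENSBTAG00000043544, with 81 reads each, passed narrowly and through 1 group, SNEB for the first and MNEB for the second. Only reads of at least 18 bases were kept in the study's processing. The table holds counts per gene, so the lengths of the reads and their place within a gene are not known.

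In RPM, where most counts come from miRNA genes, mitochondrial fragments as a whole took a steady share of the libraries. They held 1828, 1342, 1653 and 1494 RPM in the SNEB libraries and 1426, 1342, 1620 and 1343 RPM in the MNEB libraries. The means were 1579 ± 209 RPM in SNEB and 1433 ± 131 RPM in MNEB (n = 4 each, SD), and the groups overlapped. The highest library was 1.36-fold above the lowest, against 5.11-fold for the summed fragments of nuclear protein-coding genes and 1.97-fold for the 846 snoRNA genes. Of the reads outside miRNA genes, mitochondrial genes took 12.6% to 27.3%. The 27.3% was in 3M, the library with the fewest nuclear protein-coding reads, 1774 RPM against 3544 to 9062 RPM in the others. Per 100 reads of nuclear protein-coding genes, mitochondrial reads stood at 17.5 to 75.6, a 4.32-fold span. Counting error was small beside these differences: the widest 95% Wilson interval of any class total reached 4.31% of the value to either side, and covered counting error only.

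Within that total, steady in RPM, the mix of rRNA, tRNA and mRNA fragments differed widely between cows. The rRNA genes took 62.0%, 56.0%, 59.0% and 87.2% of the mitochondrial reads in SNEB and 57.1%, 65.0%, 41.9% and 17.9% in MNEB. For the tRNA genes the shares were 22.3%, 28.3%, 27.2% and 6.15% in SNEB and 27.0%, 24.5%, 44.7% and 38.2% in MNEB. For the mRNA genes they were 15.7%, 15.7%, 13.7% and 6.67% in SNEB and 15.9%, 10.5%, 13.4% and 43.9% in MNEB. Among the 8 libraries, 5 (7S, 8S, 9S, 2M and 3M) had much the same mix, 10S was nearly all rRNA, 4M was rich in tRNA and 5M was rich in mRNA and poor in rRNA.

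**Figure D1:**
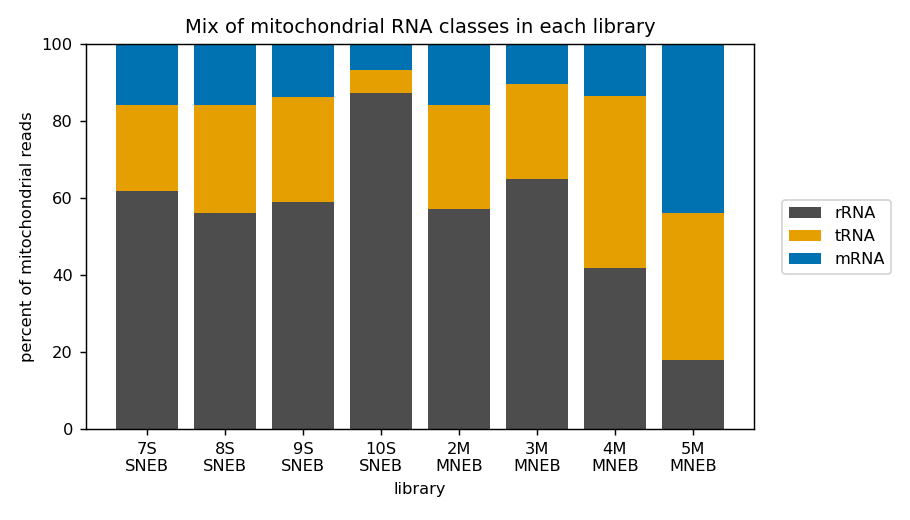
Mix of mitochondrial RNA classes. Each bar is 1 library (SNEB left, MNEB right) and its 3 parts are the percent of mitochondrial reads in rRNA, tRNA and mRNA genes; the rRNA part reaches 87.2% in 10S and 17.9% in 5M.

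The ratio of rRNA to tRNA reads was 2.78, 1.98, 2.17 and 14.2 in SNEB and 2.11, 2.65, 0.938 and 0.469 in MNEB. It exceeded 1 in 6 of 8 libraries, and its highest value was 30.2-fold above its lowest. The ratio of rRNA to mRNA reads was 3.94, 3.56, 4.30 and 13.1 in SNEB and 3.58, 6.18, 3.11 and 0.408 in MNEB, above 1 in all but 5M. Both ratios were highest in 10S and lowest in 5M. The ratio of tRNA to mRNA reads varied less, 0.922 to 1.98 in SNEB and 0.871 to 3.32 in MNEB, and was below 1 in 10S and 5M.

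Gene length bears on these ratios, because the 13 mRNAs span 11400 bases in all against 2526 bases for the 2 rRNAs and 1513 bases for the 22 tRNAs (RefSeq annotation of ARS-UCD2.0). Per kilobase, rRNA fragments exceeded mRNA fragments in all 8 libraries, 16.1-fold to 59.0-fold in SNEB and 1.84-fold to 27.9-fold in MNEB. tRNA fragments exceeded mRNA fragments per kilobase in all 8 libraries too, by 6.95-fold to 14.9-fold in SNEB and 6.57-fold to 25.0-fold in MNEB. The order of rRNA and tRNA per kilobase was not the same everywhere: rRNA was 1.19-fold to 8.49-fold above tRNA in the SNEB libraries, but in MNEB the ratio was 1.27 in 2M, 1.59 in 3M, 0.562 in 4M and 0.281 in 5M.

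Between the groups, each class overlapped in RPM. rRNA fragments stood at 1133, 752, 976 and 1302 RPM in SNEB, against 814, 872, 679 and 241 RPM in MNEB, with means of 1041 ± 234 and 651 ± 285 RPM (n = 4 each, SD). Only 8S among the SNEB libraries lay inside the MNEB range, and without 8S the groups did not overlap. With any other library left out, or with 2M placed in SNEB, they did overlap. tRNA fragments stood at 408, 379, 451 and 91.9 RPM in SNEB, against 385, 329, 723 and 513 RPM in MNEB, with means of 332 ± 163 and 488 ± 175 RPM. mRNA fragments stood at 288, 211, 227 and 99.7 RPM in SNEB, against 227, 141, 218 and 589 RPM in MNEB, with means of 206 ± 78.4 and 294 ± 201 RPM. The direction of the mRNA means rested on 5M, since without it they were 206 RPM in SNEB, against 195 RPM in MNEB. The log2 ratio of the tRNA means was -0.55, and -0.24 without 10S or -0.30 without 4M. In both of these classes the lowest library was 10S, and the highest was an MNEB library, 4M for tRNA and 5M for mRNA.

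The choice of denominator moved the class totals. As a percent of the reads outside miRNA genes, tRNA fragments took 3.69%, 3.67%, 4.60% and 1.01% in SNEB, against 5.18%, 6.69%, 5.65% and 4.90% in MNEB, and here the groups did not overlap. With 2M counted as SNEB its 5.18% would lie above the 4.90% of 5M, so the groups would overlap. For rRNA, which averaged higher in SNEB in RPM, the reads per 100 reads of nuclear protein-coding genes averaged 18.1 ± 5.85 in SNEB and 20.7 ± 20.8 in MNEB. Class totals are given as values, with no test.

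**Figure D2:**
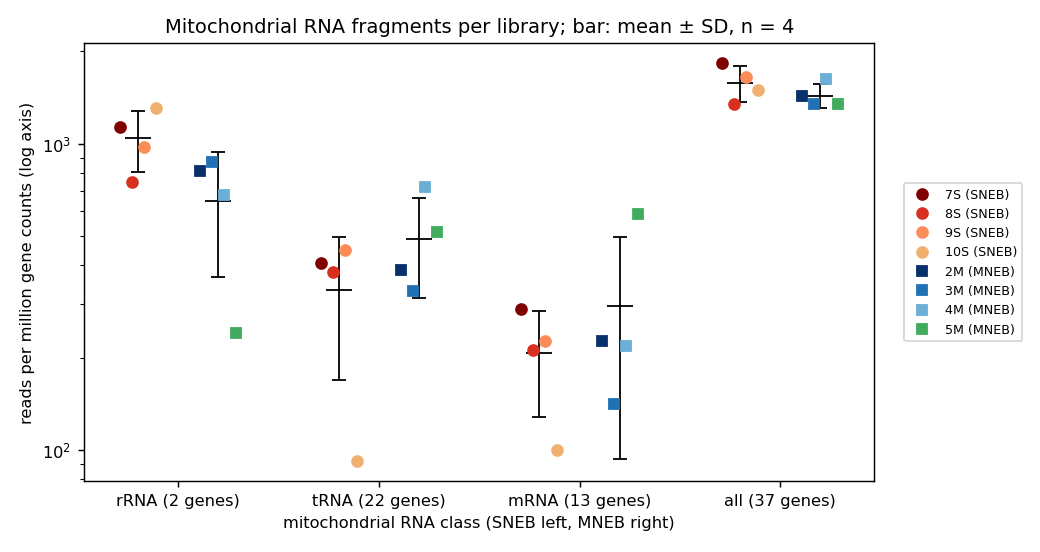
Mitochondrial fragments per library, by class. Points are the RPM of single libraries on a log axis, SNEB circles left and MNEB squares right, and bars are mean ± SD (n = 4). The summed level stays between 1342 and 1828 RPM, while 10S is low in tRNA and mRNA and 5M is low in rRNA.

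The 2 rRNA genes code for the RNAs of the large and the small subunit of the mitochondrial ribosome. The table gives them identifiers without names, so which is which was not assigned. ENSBTAG00000043570 stood at 1104, 731, 959 and 1297 RPM in SNEB, against 802, 863, 666 and 223 RPM in MNEB. It held 92.7% to 99.6% of the rRNA reads of a library and was the most abundant mitochondrial gene in 7 of 8 libraries, all but 5M. ENSBTAG00000043567 stood at 28.8, 20.8, 16.9 and 5.61 RPM in SNEB, against 11.7, 9.01, 12.8 and 17.6 RPM in MNEB. The genes went opposite ways in the outlying libraries: in 10S the abundant gene was at its highest and the sparse gene at its lowest, and in 5M the abundant gene was at its lowest.

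The ratio of the abundant to the sparse rRNA gene was 38.4, 35.2, 56.6 and 231 in SNEB, against 68.3, 95.8, 51.8 and 12.6 in MNEB. Its mean was 90.4 ± 94.4 in SNEB, against 57.1 ± 34.8 in MNEB (n = 4 each, SD). The rRNAs measure 955 and 1571 bases in the RefSeq annotation, so the order of the genes would hold per kilobase under either assignment. On the log2 scale the mean ratio was 0.51 higher in SNEB (two-sided exact permutation test, p = 0.6, and 0.6 after Benjamini-Hochberg adjustment over 2 tests; 0.0286 is the smallest p that 4 against 4 libraries allow). This difference turned to -0.10 without 10S and to -0.10 without 5M.

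Mitochondrial tRNAs carry amino acids to the mitochondrial ribosome, 1 gene for each codon family. Their genes also stand without names in the table, and each is 60 to 75 bases long in the RefSeq annotation, so levels in RPM can be compared among them with little effect of length. A few genes held most of the reads. The 3 genes with the highest mean RPM took 61.9%, 76.0%, 71.2% and 49.7% of the tRNA reads in SNEB and 75.4%, 78.8%, 75.6% and 58.7% in MNEB. The first 6 took 69.6% to 87.1% in SNEB and 73.9% to 91.4% in MNEB. There were 6 tRNA genes with a mean above 10 RPM, and 19 of 22 with a mean above 1 RPM.

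The most abundant was ENSBTAG00000043582, with 110, 112, 132 and 23.8 RPM in SNEB, against 91.4, 71.8, 306 and 252 RPM in MNEB. ENSBTAG00000043566 followed with 81.4, 77.6, 134 and 12.8 RPM in SNEB, against 117, 126, 215 and 14.6 RPM in MNEB. Both were low in 10S and high in 4M, but they parted in 5M, where the first was at 252 RPM and the second at 14.6 RPM. The second gene had 0.0579 times the reads of the first in 5M and 0.538 to 1.75 times in the other 7 libraries, and it was the larger of the pair in 9S, 2M and 3M.

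ENSBTAG00000043562 stood at 60.4, 98.2, 55.5 and 9.03 RPM in SNEB, against 82.2, 61.7, 25.7 and 34.5 RPM in MNEB. Unlike the first pair it was not high in 4M. ENSBTAG00000043545 stood at 16.9, 13.2, 30.1 and 11.7 RPM in SNEB, against 15.1, 14.4, 47.4 and 21.9 RPM in MNEB. ENSBTAG00000043551 stood at 32.3, 22.4, 15.6 and 2.98 RPM in SNEB, against 18.1, 13.5, 15.1 and 43.8 RPM in MNEB. The groups overlapped for all 5 of these genes, and neighbours in the order of mean levels overlapped between libraries.

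The share of ENSBTAG00000043582 among tRNA reads was tested by itself, since a share within a library needs no scaling. It was 27.1%, 29.6%, 29.3% and 25.9% in SNEB, against 23.7%, 21.8%, 42.3% and 49.1% in MNEB. The SNEB libraries lay close together, inside the wider MNEB range. The mean was 28.0% ± 1.78 in SNEB, against 34.2% ± 13.6 in MNEB (n = 4 each, SD), a difference of -6.28 percentage points (two-sided exact permutation test, p = 0.429, and 0.6 after Benjamini-Hochberg adjustment over 2 tests).

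In 1 tRNA gene the groups did not overlap. ENSBTAG00000043579 stood at 8.70, 6.49, 7.90 and 3.69 RPM in SNEB, against 10.0, 13.5, 36.8 and 12.4 RPM in MNEB. Every SNEB library was below every MNEB library. This was the only 1 of the 36 mitochondrial genes whose ranges did not overlap. Of the 2827 genes tested, 3.22% did not overlap in either direction and 0.46% lay lower in SNEB throughout. Counting either direction, 1 of 36 was near the share over all genes. For ENSBTAG00000043579 the log2 fold change in edgeR's quasi-likelihood test was -1.76 (standard error 0.53, unadjusted p = 0.00618, adjusted p = 0.231). The gene passed the threshold of 0.05 with DESeq2 (log2 fold change -1.77, adjusted p = 0.0239), and its adjusted p over the 19 alternative fits ranged from 0.0239 to 0.665.

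The other 15 tRNA genes with reads averaged 0.381 to 9.79 RPM. Of these, 3 were high in 7S alone. ENSBTAG00000043555 stood at 11.1, 1.47, 1.82 and 2.18 RPM in SNEB, against 1.75, 0.910, 2.34 and 2.21 RPM in MNEB. ENSBTAG00000043554 reached 12.8 RPM in 7S, against 1.26 to 5.15 RPM in the other 7 libraries. ENSBTAG00000043583, with 81 reads in all, stood at 2.04, 0.0701, 0.243 and 0.400 RPM in SNEB, against 0.219, 0.163, 0.304 and 0.0883 RPM in MNEB. 5M was the highest library in 9 of the 21 tRNA genes with reads. Among them, ENSBTAG00000043557 reached 28.3 RPM there, against 0.845 to 5.60 RPM in the other 7 libraries. ENSBTAG00000043580 reached 24.2 RPM and ENSBTAG00000043565 reached 20.4 RPM in 5M. ENSBTAG00000043574 stood at 3.01, 3.51, 2.15 and 0.623 RPM in SNEB, against 2.72, 1.92, 3.99 and 15.1 RPM in MNEB. ENSBTAG00000043573 was high in 9S, with 8.47, 2.45, 22.5 and 5.12 RPM in SNEB, against 7.23, 2.50, 8.42 and 2.83 RPM in MNEB. ENSBTAG00000043548 stood at 2.96, 1.51, 1.38 and 0.756 RPM in SNEB, against 1.71, 0.650, 4.86 and 5.54 RPM in MNEB. The groups overlapped in each of these genes.

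**Figure D3:**
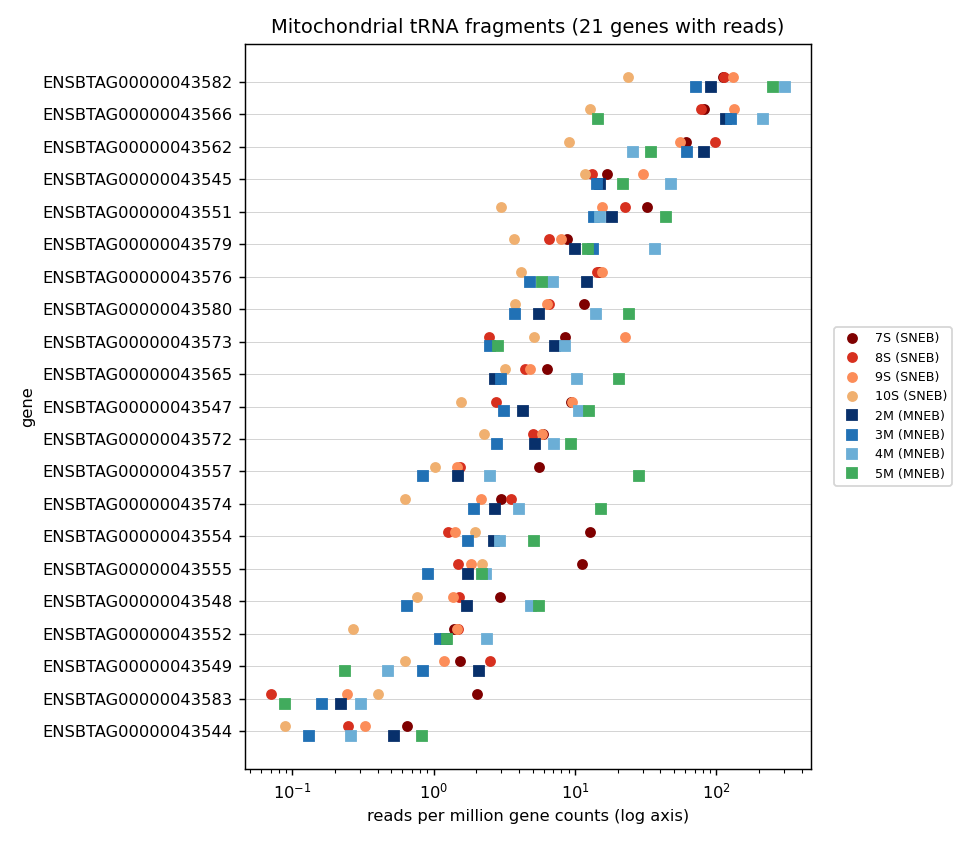
Mitochondrial tRNA fragments. Each line is 1 of the 21 tRNA genes with reads, ordered by mean level, and each point is the RPM of 1 library on a log axis (SNEB circles above, MNEB squares below). 10S is the lowest point in 13 of the 21 genes, and only ENSBTAG00000043579 keeps all SNEB points left of all MNEB points.

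The median ratio of the highest to the lowest library was 9.96 over the 21 tRNA genes with reads, 4.62 over the 13 mRNA genes and 5.47 over the 2 rRNA genes, against 8.05 over the 2691 other genes that were tested and had a read in every library.

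Fragments of the 13 mRNAs were a visible part of all protein-coding reads. They took 4.42%, 3.08%, 3.85% and 1.92% of protein-coding reads in SNEB, against 6.02%, 7.36%, 2.35% and 7.13% in MNEB, while they are 0.0650% of the 19994 protein-coding genes. The mean was 3.32% ± 1.08 in SNEB, against 5.72% ± 2.32 in MNEB (n = 4 each, SD), and the groups overlapped through 4M. By mean RPM, without regard to length, COX1 ranked 6, CYTB 10, ND5 19 and ND3 21 among protein-coding genes.

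COX1, the catalytic subunit of cytochrome c oxidase (complex IV), stood at 80.2, 75.4, 76.2 and 22.9 RPM in SNEB, against 80.8, 33.9, 70.1 and 244 RPM in MNEB. For COX1, 5 libraries lay between 70.1 and 80.8 RPM, 3M and 10S below them and 5M above. CYTB, the cytochrome b of complex III, stood at 56.0, 29.4, 33.3 and 39.8 RPM in SNEB, against 47.0, 40.4, 38.0 and 103 RPM in MNEB. It was the mRNA least low in 10S, at 0.984 times the median of the other 7 libraries. ND5, a membrane subunit of NADH dehydrogenase (complex I), stood at 36.2, 29.0, 34.5 and 14.5 RPM in SNEB, against 24.9, 17.4, 30.4 and 28.0 RPM in MNEB. It varied least of the 13, by 2.50-fold from the lowest to the highest library, and 5M did not stand out.

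Per kilobase of gene, the mRNAs ran from ND3, a small membrane subunit of complex I, at 62.0 ± 79.2 RPM per kb (n = 8, SD) to ND2, another complex I subunit, at 2.46 ± 0.973 RPM per kb. COX1 was at 55.3 ± 43.8, CYTB at 42.5 ± 20.7, ATP8 of ATP synthase at 27.5 ± 12.6, COX2 at 20.9 ± 11.9 and COX3 at 16.4 ± 17.6 RPM per kb. Then came ND5 at 14.8 ± 4.20, ATP6 at 11.4 ± 4.09, ND1 at 9.17 ± 5.31, ND4 at 8.29 ± 3.85, ND6 at 7.47 ± 2.85 and ND4L at 2.84 ± 1.50 RPM per kb. Neighbours in this order differed by less than the larger of their SDs, except ND6 and ND4L, and the ends were apart: ND2 stayed at or below 3.84 RPM per kb in every library, and COX1 and CYTB stayed at or above 14.8 RPM per kb.

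The first place of ND3 rested on 5M, where it reached 255 RPM per kb. In SNEB it stood at 58.2, 40.2, 40.0 and 5.14 RPM per kb, and in the other MNEB libraries at 35.0, 28.1 and 35.1 RPM per kb, above COX1 in only 3 of the 8 libraries. ATP8 was even across 7 libraries, 22.8 to 41.3 RPM per kb in SNEB without 10S and 24.3 to 31.2 RPM per kb in MNEB, but stood at 1.55 RPM per kb in 10S. In the RefSeq annotation ATP8 overlaps ATP6, ATP6 overlaps COX3, ND4L overlaps ND4, and ND5 overlaps ND6 on the opposite strand, and COX1 overlaps a tRNA gene. Some neighbouring tRNA genes overlap each other too. The sources used here do not say whether the counting used strand, so reads in these overlaps could be lost or assigned to the neighbour.

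By complex, the 3 mRNAs of complex IV held 28.5 ± 13.3 RPM per kb in SNEB and 46.2 ± 39.5 RPM per kb in MNEB (n = 4 each, SD). CYTB of complex III held 34.8 ± 10.3 in SNEB and 50.2 ± 27.2 in MNEB. The 7 mRNAs of complex I held 10.7 ± 4.54 in SNEB and 13.1 ± 8.06 in MNEB, and the 2 mRNAs of complex V held 14.4 ± 6.51 in SNEB and 15.8 ± 3.90 in MNEB. The means differed by less than the SD of the MNEB libraries in all 4 complexes. ND6, the one mRNA on the other strand of the genome, held 7.74 ± 3.02 in SNEB and 7.20 ± 3.11 in MNEB, a level inside the range of the other complex I mRNAs.

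**Figure D4:**
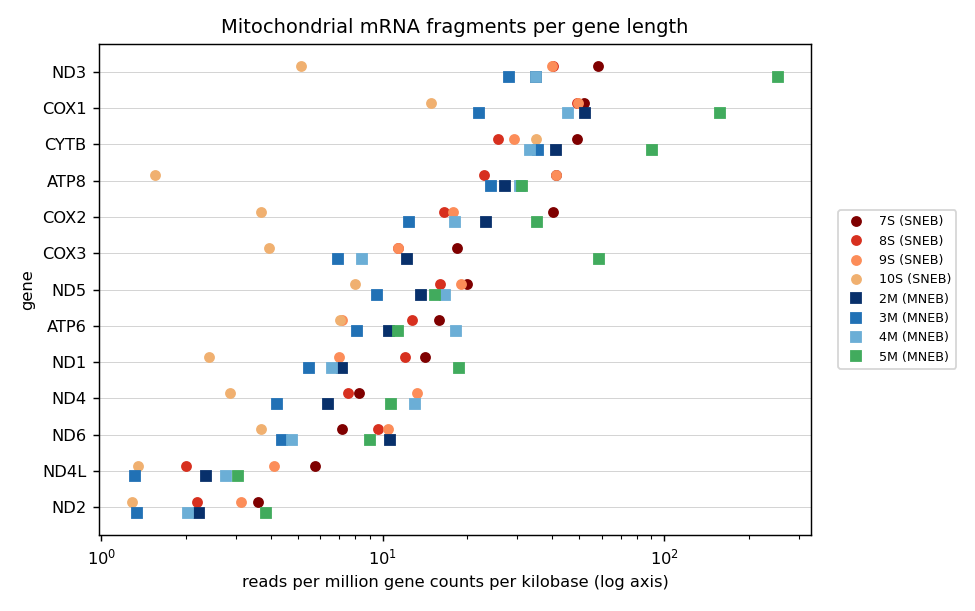
Mitochondrial mRNA fragments per gene length. Each line is 1 of the 13 genes, ordered by the mean over 8 libraries, and each point is the RPM per kilobase of 1 library on a log axis (SNEB circles above, MNEB squares below). 10S is the lowest point in 11 genes, down to 1.55 for ATP8, and 5M reaches 255 for ND3.

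Among the members, 10S was most often the lowest library and 5M most often the highest. 10S was the lowest library in 25 of the 36 members with reads, where it was the lowest in 4.95% of all 2827 genes tested. It was lowest in 13 of 21 tRNA genes and 11 of 13 mRNA genes. Against the median of the other 7 libraries, its median ratio was 0.386 over the tRNA genes and 0.348 over the mRNA genes, against 0.961 over 2402 nuclear protein-coding genes with a mean of at least 10 reads, and ENSBTAG00000043570 was at 1.62 times the median. So nuclear mRNA fragments of the same library were not low. 5M was the highest library in 15 of the 36 members, where it was the highest in 18.2% of the genes tested, and in it 12 of 13 mRNA genes lay above the median of the others. In 3M, by contrast, the mitochondrial mRNA and tRNA genes were at median ratios of 0.608 and 0.638, against 0.297 over nuclear protein-coding genes.

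SNEB and MNEB were then compared gene by gene over all gene types in edgeR by the quasi-likelihood test, with TMM factors and adjustment over the 2827 genes tested. None of the 36 members passed an adjusted p of 0.05, where 0.0707% of the genes tested did (2 genes, ANGPTL4 higher and FADS2 lower in SNEB). At an unadjusted p under 0.05 there were 3 members, the tRNA genes ENSBTAG00000043579, ENSBTAG00000043574 and ENSBTAG00000043548, all lower in SNEB, while 11.5% of the genes tested passed in either direction and 6.76% lower. The members' share was thus near the background. By limma voom 0 members passed, where 0.0354% of the genes did, by edgeR's exact test 0, where 1.87% did, and by DESeq2 1, where 2.44% did. Without a filter on low counts, ENSBTAG00000043557 passed in edgeR's quasi-likelihood test (log2 fold change -1.86, adjusted p = 0.0439), where 0.883% of the genes did. This gene had a single high library, 5M. It stood at 5.60, 1.54, 1.46 and 1.02 RPM in SNEB, against 1.49, 0.845, 2.52 and 28.3 RPM in MNEB. With 2M placed in SNEB 0 members and 0% of the genes passed, and the smallest adjusted p among them in edgeR's quasi-likelihood test was 0.247.

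The fitted values of the members lay mostly below 0. Of the 36, 30 had a log2 fold change below 0, as had 54.2% of the genes tested, and the median was -0.64 over the members and -0.05 over all genes. The 21 tRNA genes had 5 above and 16 below 0 with a median of -0.75, the 13 mRNA genes 1 above and 12 below with a median of -0.59, and both rRNA genes were below 0. This tilt depended on scaling. TMM factors ran from 0.379 in 3M to 1.79 in 4M, and without scaling 23 of 36 members were below 0, as were 41.7% of all genes, with medians of -0.25 over the members and 0.13 over all genes. Both rRNA genes were then above 0, the tRNA genes had 7 above and 14 below, and the mRNA genes 4 above and 9 below. Relative to the median of all genes, the members' median was lower under both scalings. With single libraries left out it ranged over -0.83 to -0.39, and it was -0.41 without 10S and -0.39 without 3M. Without 10S the median was -0.45 over the tRNA genes and -0.24 over the mRNA genes.

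For the abundant rRNA gene ENSBTAG00000043570 the log2 fold change was -0.09 (standard error 0.78) in edgeR's quasi-likelihood test with an adjusted p of 0.980, and it was 0.68 without scaling. For ENSBTAG00000043567 it was -0.00 (standard error 0.55, adjusted p = 1.00), and 0.49 without scaling. Both fitted values were small beside their standard errors, so neither gene had a clear direction. The sign turned in 8 of 19 alternative fits for ENSBTAG00000043570 and in 12 of 19 for ENSBTAG00000043567.

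Among tRNA genes, the log2 fold change was -1.57 for ENSBTAG00000043574 (standard error 0.61, adjusted p = 0.337) and -1.02 for ENSBTAG00000043548 (standard error 0.45, adjusted p = 0.410) in edgeR's quasi-likelihood test. The 3 members with the smallest p above 0 were ENSBTAG00000043583 at 1.43 (standard error 0.86), ENSBTAG00000043555 at 0.81 (standard error 0.60) and ENSBTAG00000043573 at 0.63 (standard error 0.71), with adjusted p of 0.579, 0.637 and 0.789. Each of these 3 genes had a single high SNEB library, 7S for the first 2 genes and 9S for the last. ENSBTAG00000043583 had 44, 2, 6 and 9 reads in SNEB, against 5, 5, 7 and 3 reads in MNEB, so it passed the filter only through the group where it was high, and without 7S it fell below the filter and could not be tested. ENSBTAG00000043555 turned to -0.16 without 7S, and ENSBTAG00000043573 to -0.36 without 9S. ENSBTAG00000043574 was at -0.83 without 5M. The 5 most abundant tRNA genes lay between -1.20 and -0.65, with adjusted p of 0.564 to 0.787, and ENSBTAG00000043562 turned to 0.13 without scaling. With single libraries left out these 5 ranged over -1.77 to -0.12. Without 3M, ENSBTAG00000043566 was at -0.50 and ENSBTAG00000043562 at -0.12.

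Among mRNA genes, the log2 fold change was -0.99 for COX1 (standard error 0.63, adjusted p = 0.595), -0.98 for CYTB (standard error 0.58, adjusted p = 0.579) and -0.26 for ND5 (standard error 0.52, adjusted p = 0.898) in edgeR's quasi-likelihood test. Without 5M, COX1 was at -0.47. ND5 turned to 0.18 without scaling. The 95% interval for COX1 ran from -2.36 to 0.39 with 4 cows a group. ND3 had the lowest value of the 13, -1.52 (standard error 0.79, adjusted p = 0.516). Its level was 88.1 RPM in 5M, against 1.78 to 20.1 RPM in the other libraries. ND4L at 0.14 was the only mRNA above 0.

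**Figure D5:**
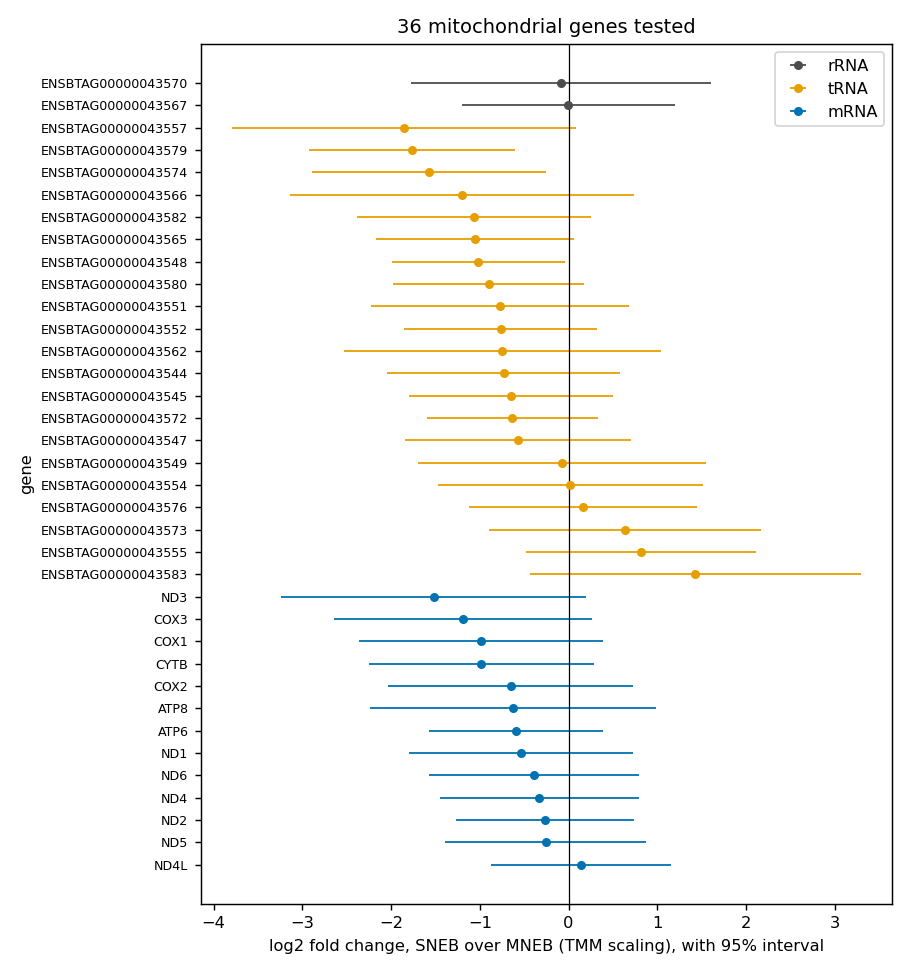
SNEB against MNEB for the 36 mitochondrial genes tested. Points are log2 fold changes (edgeR, quasi-likelihood, TMM) and lines their 95% intervals, grouped by class; 30 of 36 points lie below 0, and those of ENSBTAG00000043579, ENSBTAG00000043574 and ENSBTAG00000043548 are the intervals that do not reach 0.

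The nuclear genes that make, process and use mitochondrial RNA were thinly covered. Of 42 genes listed under mitochondrial transcription and RNA processing, 4 had enough reads to test: HSD17B10, LRPPRC, TRNT1 and the DNA polymerase POLG. None passed in edgeR's quasi-likelihood test (3 above and 1 below 0, median 0.15, where the median of all genes was -0.05). POLG was among those above 0, at a log2 fold change of 0.097. HSD17B10, a subunit of the enzyme that cuts tRNAs free at their 5′ end, averaged 2.57 ± 0.851 RPM in SNEB and 1.31 ± 0.555 RPM in MNEB (n = 4 each, SD; log2 fold change 0.72, adjusted p = 0.552 in edgeR's quasi-likelihood test). TRNT1, which adds the CCA end to tRNAs, averaged 0.388 ± 0.192 RPM in SNEB and 0.410 ± 0.287 RPM in MNEB. LRPPRC, which stabilises mitochondrial mRNAs, averaged 0.674 ± 0.0811 RPM in SNEB and 0.516 ± 0.286 RPM in MNEB.

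Of 21 mitochondrial tRNA synthetase genes 3 were tested (2 above and 1 below 0), of 77 mitochondrial ribosomal protein genes 5 (2 above and 3 below 0), and of 85 nuclear respiratory chain subunit genes 17 (12 above and 5 below 0). None passed an adjusted p of 0.05 in edgeR's quasi-likelihood test and none had an unadjusted p under 0.05. The median log2 fold change over the 36 mitochondrial genes was -0.64, against 0.23, -0.07 and 0.15 over these 3 lists of few tested genes. Without scaling it was -0.25 over the mitochondrial genes, against 0.46, -0.05 and 0.28 over the lists. SDHA, the flavoprotein of complex II, all of whose subunits are nuclear-encoded, averaged 4.15 ± 1.36 RPM in SNEB and 3.22 ± 1.87 RPM in MNEB (n = 4 each, SD). The nuclear subunits of the respiratory chain summed to 24.4 ± 5.28 RPM in SNEB and 20.6 ± 13.2 RPM in MNEB, a small sum beside that of the 13 mitochondrial mRNAs.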

How the data were processed

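Small RNA of 8 bovine liver libraries was sequenced. The authors deposited counts per Ensembl gene. They trimmed adaptors (cutadapt 1.1), dropped reads under 18 bases, checked quality (FastQC 0.10.0), aligned to UMD3.1 (Novoalign 2.07.11) and counted uniquely aligned reads (HTSeq 0.5.3p3). Whether reads that fit both a mitochondrial gene and a nuclear copy of it were dropped by the unique-alignment rule was not tested. The 3 entries that name no gene were left out. The column headed 6S was taken as 8S from its sample description.

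RPM were computed over all gene counts. Lengths were those of RefSeq on ARS-UCD2.0, which matched all 13 mRNAs by symbol. SNEB was compared with MNEB (4 libraries each, 1 per cow) by edgeR 4.0.16 (R 4.3.3), TMM scaling, quasi-likelihood test, genes with a mean count of at least 10, Benjamini-Hochberg adjustment over 2827 genes. The fit was tested on simulated data. There were 19 alternative fits: 3 other scalings, library size without miRNA genes, 3 filters, 2M in SNEB, DESeq2 1.42.0, limma voom 3.58.1, edgeR's exact test, and each library left out in turn. The 2 single values were tested by exact permutation over 70 assignments (scipy 1.17.1). The 12 pairs of libraries within groups differed beyond sampling noise (chi-square at least 17.3 per degree of freedom).

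Printed per library were both rRNA genes, the 6 tRNA and 3 mRNA genes with the highest mean RPM, and the 3 members with the smallest p in each direction; other genes were named after their values were seen. The members, lists and tests were chosen with earlier results of these data known. The lists of nuclear genes and the cell markers were written by hand.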

Additional observations from a re-analysis of the deposited data

Results flagged for a closer look

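Among 50 sets of 4 values examined, 9 held a library far from the other 3 of its group, measured by its gap to the nearest of them over the range of the 4. For normally distributed values, chance flags about 1 in 20 such groups. RPM and ratios need not be normal, the sets share libraries, and some genes were included for their small p. The 9 flags are therefore not a test against chance. COX1 stood at 22.9 RPM in 10S, against 75.4 to 80.2 RPM in the other SNEB libraries. The ratio of the 2 rRNA genes was 231 in 10S, against 35.2 to 56.6. In 7S, ENSBTAG00000043555 stood at 11.1 RPM, against 1.47 to 2.18 RPM in the other SNEB libraries, and ENSBTAG00000043583 at 2.04 RPM, against 0.0701 to 0.400 RPM.

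In 5M, CYTB stood at 103 RPM, against 38.0 to 47.0 RPM in the other MNEB libraries. ENSBTAG00000043551 stood there at 43.8 RPM, against 13.5 to 18.1 RPM, and ENSBTAG00000043574 at 15.1 RPM, against 1.92 to 3.99 RPM. mRNA genes took 43.9% of the mitochondrial reads of 5M, against 10.5% to 15.9%. In 4M, ENSBTAG00000043579 stood at 36.8 RPM, against 10.0 to 13.5 RPM. 5M also held the least miR-451 and 4M the most Kupffer cell marker reads. In the paper's read statistics, 4M lost the most reads as too short and 5M had the most uniquely aligned reads. The part of these features in the values above was not tested.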

How the results depend on the processing

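The number of genes called among all tested, 2 with edgeR's quasi-likelihood test, was 55 without scaling, 4 among genes with a read in every library, 0 among those above 10 RPM, 133 without a filter, 0 with 2M in SNEB, 69 with DESeq2, 1 with limma voom, 53 with edgeR's exact test, and 1 to 34 with a library left out (34 without 5M). Among the mitochondrial genes the call count of 0 became 1 without a filter (ENSBTAG00000043557, log2 fold change -1.86, adjusted p = 0.0439) and 1 with DESeq2 (ENSBTAG00000043579, -1.77). It was 0 in the other 17 alternatives. ENSBTAG00000043557 was high in 5M alone, at 28.3 RPM against 0.845 to 5.60 RPM in the other libraries. The log2 difference of the rRNA ratio was -0.104 without 5M, -0.0999 without 10S and up to 0.869 with another library left out.

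Against reads of nuclear protein-coding genes, the log2 ratio of SNEB over MNEB means was -0.19 for rRNA (0.68 in RPM) and -0.49 for all mitochondrial reads (0.14 in RPM), and -0.19 for all of these against reads outside miRNA genes. Per kilobase, the mean log2 ratio over 8 libraries was 3.98 for rRNA to mRNA (1.80 in RPM) and 3.63 for tRNA to mRNA (0.72 in RPM).

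Fitted directions turned as follows. For ENSBTAG00000043570 the log2 fold change was 0.68 without scaling, 0.0055 with a read in every library, 0.36 above 10 RPM, 0.11 without a filter, 0.018 with 2M in SNEB, 0.38 with limma voom, and -0.38 to 0.76 with a library left out. For ENSBTAG00000043567 it was 0.0025 with upper quartile and 0.0055 with RLE scaling, 0.49 without scaling, 0.056 with a read in every library, 0.14 without a filter, 0.030 with 2M in SNEB, 0.0065 with DESeq2 and -0.22 to 0.30 with a library left out. ENSBTAG00000043562 (0.13) and ND5 (0.18) turned without scaling. With a library left out, ND5 ranged over -0.46 to 0.035 (without 3M), ENSBTAG00000043555 over -0.16 (without 7S) to 1.14 and ENSBTAG00000043573 over -0.36 (without 9S) to 1.02. The causes were not tested. No pairing of the cows is described, so no paired analysis was run.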
